A study of Mus musculus with 8 samples.

Results

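The 10 genes described here belong to the FGF, Ras and ERK pathway: the FGF ligands Fgf4 and Fgf10, the receptor Fgfr1, the Ras activator Rasgrp1, the feedback inhibitors Spry2, Spry4 and Dusp6, and the transcription factors Etv4, Etv5 and Egr1. They were chosen by symbol with earlier results of these data known, so the shares of them called are descriptive. All 10 were found among the 24421 gene symbols of both count tables. Messenger RNA was sequenced from mouse embryonic stem cells kept for 3 to 4 passages in 2i/LIF, in 8 libraries that form 4 groups of 2. Cells of the v6.5 line in which 72 hours of doxycycline depleted Ubc9, the conjugating enzyme of the SUMO pathway, were compared with Ubc9 control cells of that line. H1 TKO cells, triple mutants without the linker histone genes Hist1h1c, Hist1h1d and Hist1h1e, were compared with H1 control cells, and both lines came from an earlier publication. The labels do not say how doxycycline removes Ubc9, whether the Ubc9 controls received it, how many clones each group stands for, or whether replicate libraries stem from different cultures, so the p-values measure only the spread between libraries.

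FGF ligands bind receptor tyrosine kinases, which load Ras with GTP through exchange factors and so switch on the Raf, MEK and ERK kinases. ERK then induces transcription factors such as Egr1, Etv4 and Etv5, and inhibitors such as the Sprouty proteins and the phosphatase Dusp6, which damp the same pathway. In mouse embryonic stem cells Fgf4 is the main autocrine ligand that moves cells out of the naive state. The medium 2i contains a MEK inhibitor, which is used to lower ERK signalling, and all 4 groups were kept in it.

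The promoter sequences of the 3 genes that fell in both comparisons are shown first, with that of Etv5, an ERK target that was called in neither. They are the 250 bases before the annotated start, read 5′ to 3′ on the gene's strand from RefSeq (GRCm38.p6), and lie at chr7:144861136-144861385 (plus strand) for Fgf4, chr13:118714449-118714698 (plus strand) for Fgf10, chr2:117342878-117343127 (minus strand) for Rasgrp1 and chr16:22438369-22438618 (minus strand) for 1 of 2 annotated starts of Etv5. Capitals mark the letters TGAATG, searched on both strands.
Fgf4: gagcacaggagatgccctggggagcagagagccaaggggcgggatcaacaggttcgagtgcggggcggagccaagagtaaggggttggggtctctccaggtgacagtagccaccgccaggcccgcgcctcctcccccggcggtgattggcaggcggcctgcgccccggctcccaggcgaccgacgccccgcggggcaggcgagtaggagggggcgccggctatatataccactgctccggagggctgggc
Fgf10: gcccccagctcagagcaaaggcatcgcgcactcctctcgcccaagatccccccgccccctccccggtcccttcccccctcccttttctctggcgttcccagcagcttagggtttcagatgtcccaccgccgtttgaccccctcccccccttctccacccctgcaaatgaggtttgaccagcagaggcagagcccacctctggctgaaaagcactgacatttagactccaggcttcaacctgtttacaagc
Rasgrp1: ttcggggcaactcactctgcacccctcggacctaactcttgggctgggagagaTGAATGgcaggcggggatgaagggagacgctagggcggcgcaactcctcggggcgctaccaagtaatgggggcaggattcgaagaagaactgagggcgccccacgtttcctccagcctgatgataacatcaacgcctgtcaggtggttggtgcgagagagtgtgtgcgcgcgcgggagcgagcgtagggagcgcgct
Etv5: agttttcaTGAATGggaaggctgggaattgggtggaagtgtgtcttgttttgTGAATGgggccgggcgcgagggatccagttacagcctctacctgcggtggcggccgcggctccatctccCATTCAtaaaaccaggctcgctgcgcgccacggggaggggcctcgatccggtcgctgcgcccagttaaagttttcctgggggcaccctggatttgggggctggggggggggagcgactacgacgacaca

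TGAATG begins the octamers TGAATGAA and TGAATGGA, which the ERK-regulated repressor Capicua is known to bind, and was added after the sequences were seen. It occurred 3 times in this Etv5 window and once in those of Rasgrp1 and Dusp6. It was not found in the windows of Fgf4, Fgf10 and Spry2 or in the other Etv5 window. Over all 32851 mouse promoter windows of the same length, 10.9% held it. Windows were matched for 6 of the 10 genes (7 windows in all), and 0 of them held either octamer (1.08% and 1.01% of all windows), the ETS-factor letters CCGGAAGT (2.88%) or an SRF CArG box (1.47%). The windows of Fgf4, Fgf10 and Rasgrp1 had 71.2%, 61.2% and 62.4% G and C, with 21, 8 and 21 CpG dinucleotides, against medians of 52.4% and 6 over all windows. The genes that did not fall in both were alike in this, with 56.4% and 16 for Dusp6, 62.4% and 23 for Spry2, and 62% and 18 in the Etv5 window shown. A match or its absence is a description of these letters only. In GENCODE M21 (GRCm38) the other genes lie at chr14:105891947-105896819 (Spry2, minus strand), chr10:99263231-99267489 (Dusp6, plus strand), chr11:101769742-101785371 (Etv4, minus strand) and chr8:25513654-25575718 (Fgfr1, plus strand), and Spry4 and Egr1 on chromosome 18.

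Total counts over genes were 75972231 and 88410194 in the Ubc9-depleted and 99269669 and 102780141 in the Ubc9 control libraries, and 44441713 and 68445181 in the H1 TKO and 52960206 and 56032400 in the H1 control libraries. The genes deleted in H1 TKO cells followed the labels: Hist1h1c, Hist1h1d and Hist1h1e had 0 counts in both H1 TKO libraries, against 100 to 231 in the H1 controls. Stem cell identity was checked with 8 markers, whose summed level in CPM (counts relative to the library total, scaled by TMM factors) was 4701 to 4844 in Ubc9-depleted and 5062 to 5325 CPM in Ubc9 control libraries, and 10493 to 10642 CPM in H1 TKO and 5366 to 5835 CPM in H1 control libraries. Tfcp2l1 was the 1 of the 8 called in either comparison, with means of 976 CPM in Ubc9-depleted and 1340 CPM in Ubc9 control libraries, and 5164 CPM in H1 TKO and 1694 CPM in H1 control libraries. Some libraries stood apart. Of 6248 genes that were silent in the Ubc9 controls (1 count or fewer in each), 85.2% had a count in Ubc9-depleted library 1, at a median of 0.0997 CPM, and 29.2% in Ubc9-depleted library 2. Log2 ratios between replicates had an SD over genes of 0.23 in H1 TKO cells and 0.547 in H1 controls. Results are therefore given also without Ubc9-depleted library 1 or an H1 control library.

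Per kilobase of exon, Fgf4 was the most abundant of the 10 transcripts in both control groups. In Ubc9 controls the levels in TPM (counts per exonic length, scaled to the same sum in each library) were 416 ± 37.5 for Fgf4, 246 ± 13.7 for Spry2, 178 ± 8.27 for Etv5, 35.2 ± 1.36 for Fgfr1, 19.6 ± 1.71 for Etv4, 14.2 ± 0.055 for Rasgrp1, 8.16 ± 0.34 for Fgf10, 4.00 ± 0.31 for Dusp6, 0.75 ± 0.23 for Spry4 and 0.51 ± 0.0059 for Egr1 (mean ± SD, n = 2 libraries here and below). No neighbours in this order overlapped between libraries. H1 controls, made with another kit, had 301 ± 18.2 TPM for Fgf4, 180 ± 6.01 for Etv5, 73.4 ± 9.24 for Spry2, 36.0 ± 0.61 for Fgfr1, 33.9 ± 5.54 for Etv4, 7.12 ± 2.74 for Rasgrp1, 4.47 ± 1.16 for Dusp6, 2.89 ± 0.69 for Fgf10, 1.54 ± 0.56 for Spry4 and 0.32 ± 0.19 for Egr1. There Fgfr1 overlapped with Etv4, and Rasgrp1 with Dusp6. Fgf4 and Fgfr1 were thus well expressed, and the ERK-induced genes Spry2 and Etv5 lay above Fgfr1 in both control groups. The ligand Fgf10 was low, and Egr1, an immediate early target of ERK, was the lowest of the 10.

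**Figure D1:**
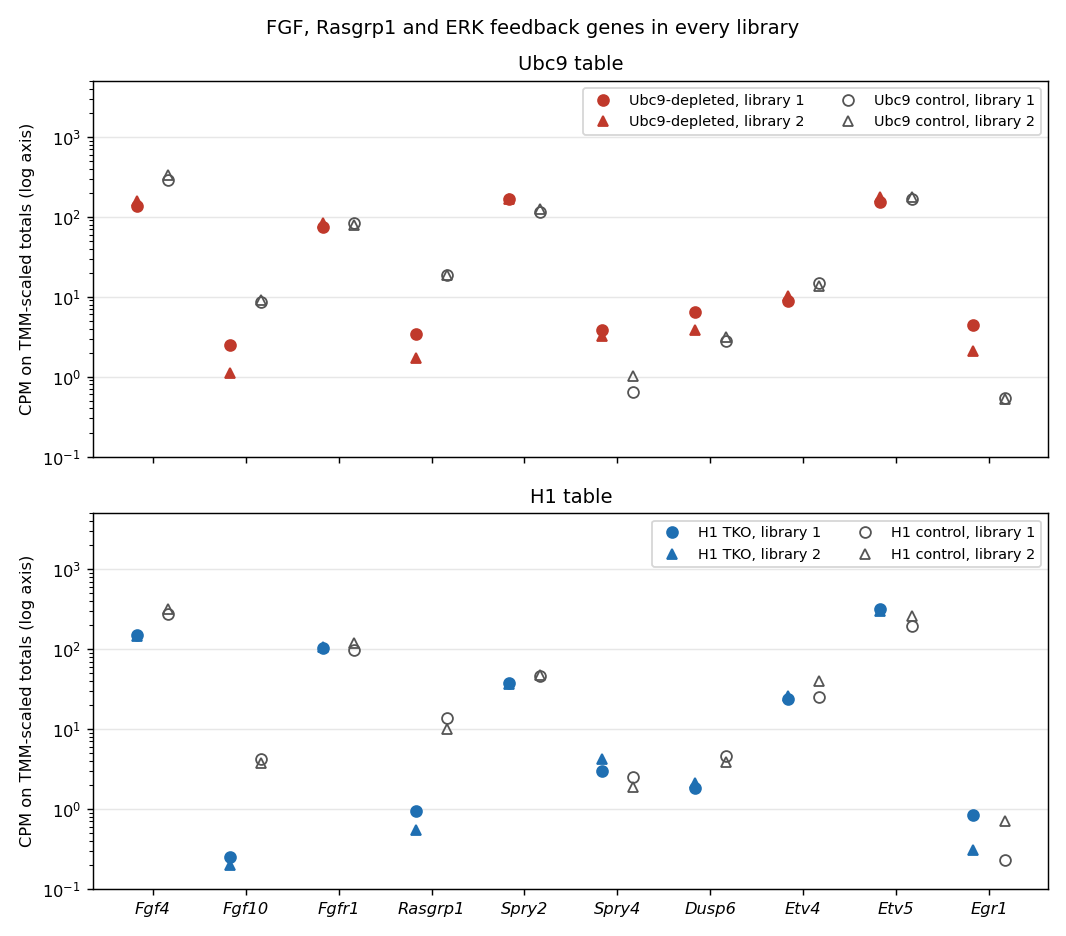
Level of each of the 10 genes in every library, in CPM on a log axis, with Ubc9-depleted left of Ubc9 control above and H1 TKO left of H1 control below (circles: library 1, triangles: library 2). Fgf4, Fgf10 and Rasgrp1 lay lower in both Ubc9-depleted and both H1 TKO libraries than in their controls, with Fgf10 at 0.251 and 0.198 CPM in H1 TKO cells.

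The first comparison concerns these genes when SUMO conjugation is impaired. Among the 10 genes, Fgf4, Fgf10, Rasgrp1 and Etv4 fell after Ubc9 depletion, while Spry2, Spry4, Dusp6 and Egr1 rose. The calls on Spry2, Dusp6 and Etv4 were lost in some alternatives, and upstream genes outside the 10 went both ways, as given below. Fgfr1 and Etv5 were not called. All 10 genes passed the filter on low counts, and edgeR called 4 higher and 4 lower at a threshold of 0.05 on the Benjamini-Hochberg adjusted p (quasi-likelihood test over all 16499 genes, the source of every adjusted p below unless another tool is named). DESeq2 called 3 higher and 4 lower, against 2759 higher and 2309 lower over all genes. Of all genes tested edgeR called 21.1% higher and 15.0% lower, 36.0% in all. Of these edgeR calls 58.5% were higher (78.6% when libraries were scaled by their totals alone). The median log2 fold change was -0.05 over the 10 genes and 0.06 over all genes. In bulk RNA, fewer cells that express a gene and less RNA per cell cannot be told apart.

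Fgf4, the autocrine ligand, had 136 and 157 CPM in Ubc9-depleted cells, against 290 and 333 CPM in Ubc9 controls. Both depleted libraries lay below both controls, and the log2 fold change was -1.09 ± 0.13 (± SE, adjusted p = 1.4e-07), a level 2.12-fold lower. Fgf10, a ligand known for mesenchyme-to-epithelium signalling in limb and lung, had 2.48 and 1.11 CPM in Ubc9-depleted cells and 8.49 and 9.11 CPM in Ubc9 controls. It fell by 2.27 ± 0.25 on the log2 scale (adjusted p = 1.7e-08), and the groups did not overlap. Rasgrp1, a diacylglycerol-responsive exchange factor best known from T cells, had 3.42 and 1.72 CPM in Ubc9-depleted cells and 18.5 and 18.7 CPM in Ubc9 controls. The log2 fold change was -2.83 ± 0.18 (adjusted p = 2.2e-13), and again no library of one group reached the other.

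In Ubc9-depleted cells the transcripts of low level were uneven between libraries. Library 1 had 2.23 times the CPM of library 2 for Fgf10, 1.99 times for Rasgrp1, 2.07 times for Egr1 and 1.66 times for Dusp6, against 0.868 for Fgf4, 1.02 for Spry2 and 0.844 for Etv5. Without library 1 the falls of Fgf10 and Rasgrp1 were larger, with log2 fold changes of -2.99 and -3.44, and Fgf4 fell by 0.99 on the log2 scale. All 3 falls were called whichever of the 4 libraries was omitted.

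Among the inhibitors, Spry4, a Sprouty protein that blocks receptor signalling to Ras, had 3.82 and 3.23 CPM in Ubc9-depleted cells and 0.648 and 1.02 CPM in Ubc9 controls. Its log2 fold change was 2.08 ± 0.39 (adjusted p = 1.2e-04), or 1.95 without Ubc9-depleted library 1. Spry2, a relative that is far more abundant, had 169 and 166 CPM in Ubc9-depleted cells and 115 and 126 CPM in Ubc9 controls, a log2 fold change of 0.48 ± 0.12 (adjusted p = 0.0031). The groups did not overlap for either gene, as for 36.6% of all genes tested in this direction and 32.3% in the other, but the call on Spry2 was lost without Ubc9 control library 1 (adjusted p = 0.42) or 2 (adjusted p = 0.25). Dusp6, a phosphatase that inactivates ERK in the cytoplasm, had 6.44 and 3.89 CPM in Ubc9-depleted cells and 2.76 and 3.12 CPM in Ubc9 controls. Its log2 fold change of 0.82 ± 0.25 (adjusted p = 0.013) became 0.40 (adjusted p = 0.12) without Ubc9-depleted library 1, and it was not called without Ubc9 control library 1 or 2 (adjusted p = 0.30 and 0.19) or by DESeq2 (adjusted p = 0.12).

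Of the transcription factors, Egr1, an immediate early zinc finger protein, had 4.39 and 2.12 CPM in Ubc9-depleted cells and 0.535 and 0.532 CPM in Ubc9 controls. The log2 fold change was 2.61 ± 0.46 (adjusted p = 5.2e-05), or 1.98 without Ubc9-depleted library 1, and the groups did not overlap. Etv4, an ETS factor, went the other way, with 8.87 and 10.1 CPM in Ubc9-depleted cells and 15.0 and 13.4 CPM in Ubc9 controls. It fell by 0.59 ± 0.12 on the log2 scale (adjusted p = 3.9e-04), a call that was lost when libraries were scaled by their totals alone (log2 fold change -0.40, adjusted p = 0.05004) or all 8 libraries were fitted together (adjusted p = 0.095). In that joint fit Spry2 and Dusp6 were not called either (adjusted p = 0.074 and 0.12). Etv5, its close relative, had 152 and 180 CPM in Ubc9-depleted cells and 165 and 178 CPM in Ubc9 controls, so that the groups overlapped (log2 fold change -0.05 ± 0.13, adjusted p = 0.78), although it was called lower, at -0.25, without Ubc9-depleted library 2 (adjusted p = 0.048). The receptor Fgfr1 had 74.1 and 83.2 CPM in Ubc9-depleted cells and 83.3 and 79.8 CPM in Ubc9 controls (log2 fold change -0.05 ± 0.12, adjusted p = 0.76). A non-coding gene on the opposite strand shares 164 exonic bases with Fgfr1, and another shares 123 with Fgf10, and whether counting used strand is not given in the sources used here.

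**Figure D2:**
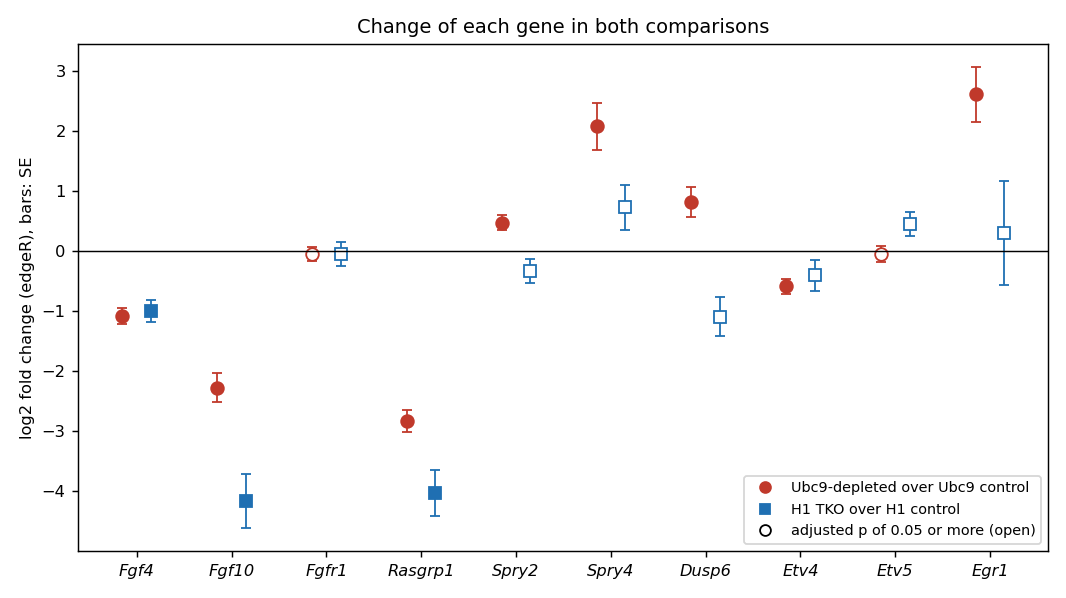
Log2 fold change of each gene in the Ubc9 comparison (red circles) and the H1 comparison (blue squares), with bars of 1 SE and open symbols where the adjusted p was 0.05 or more. Fgf4, Fgf10 and Rasgrp1 were lower in both, at -1.09, -2.27 and -2.83 after Ubc9 depletion and -0.996, -4.16 and -4.03 in H1 TKO cells, while Egr1, Spry4, Dusp6 and Spry2 were called higher after Ubc9 depletion.

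The second comparison concerns the same genes in cells without 3 linker histones. Fgf4, Fgf10 and Rasgrp1 fell in H1 TKO cells, and none of the other 7 genes was called. A missing call does not show an unchanged gene, as 25% of simulated 2-fold changes were recovered here, against 68% in the Ubc9 comparison. With edgeR, 3 of the 10 genes were called lower and 0 higher. At an unadjusted p under 0.05 the counts were 4 lower and 0 higher, and the share of all genes there was not computed. DESeq2 called 4 lower and 0 higher, against 1696 lower and 1667 higher over all genes. Of the 14800 genes tested, edgeR called 8.43% lower and 8.59% higher at the adjusted threshold, 17.0% in all. The median log2 fold change was -0.37 over the 10 genes and -0.02 over all genes.

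Fgf10 had 0.251 and 0.198 CPM in H1 TKO cells (11 and 13 counts), against 4.27 and 3.76 CPM in H1 controls (260 and 194 counts). It was 17.9-fold lower, with a log2 fold change of -4.16 ± 0.45 (adjusted p = 0.0016). Rasgrp1 was 16.1-fold lower, with 0.936 and 0.549 CPM in H1 TKO cells and 13.9 and 9.91 CPM in H1 controls (log2 fold change -4.03 ± 0.39, adjusted p = 0.0011). These falls were called whichever library was omitted, between -4.35 and -3.99 for Fgf10 and between -4.46 and -3.67 for Rasgrp1. Fgf4 had 151 and 145 CPM in H1 TKO cells and 275 and 314 CPM in H1 controls, a log2 fold change of -0.996 ± 0.18 (adjusted p = 0.012). All H1 TKO values lay below all H1 control values, but the call on Fgf4 was lost without H1 TKO library 1 (adjusted p = 0.23) or 2 (adjusted p = 0.32). Without H1 control library 1, the log2 fold changes of Fgf4, Fgf10 and Rasgrp1 were -1.08, -4.07 and -3.77, and all 3 were called.

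Dusp6, higher after Ubc9 depletion, had 1.83 and 2.12 CPM in H1 TKO cells and 4.55 and 3.90 CPM in H1 controls. The groups did not overlap, and the log2 fold change of -1.10 ± 0.33 missed the threshold (adjusted p = 0.060), although it passed in 7 of the 10 alternatives, with adjusted p between 0.0036 and 0.0495 there (DESeq2 0.049). Spry2 had 37.3 and 37.0 CPM in H1 TKO cells and 45.8 and 47.6 CPM in H1 controls (log2 fold change -0.33 ± 0.19, adjusted p = 0.29). Spry4 had 2.99 and 4.27 CPM in H1 TKO cells and 2.53 and 1.86 CPM in H1 controls (log2 fold change 0.73 ± 0.37, adjusted p = 0.22). Neither pair of groups overlapped, and over all genes tested 31.4% were higher and 30.6% lower without overlap. Without H1 control library 1, Spry2 was called lower (-0.35, adjusted p = 0.011) and Spry4 higher (0.97, adjusted p = 0.021).

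Etv5 had 320 and 302 CPM in H1 TKO cells and 197 and 257 CPM in H1 controls (log2 fold change 0.45 ± 0.20, adjusted p = 0.17), and the groups did not overlap. Etv4 had 23.9 and 25.7 CPM in H1 TKO cells and 25.5 and 40.0 CPM in H1 controls (log2 fold change -0.40 ± 0.26, adjusted p = 0.335), with overlap. These factors were called, in opposite directions, without H1 control library 1, at 0.28 for Etv5 (adjusted p = 0.023) and -0.68 for Etv4 (adjusted p = 9.0e-07), and without H1 control library 2 at 0.65 for Etv5 (adjusted p = 9.5e-06) but not for Etv4 (-0.04, adjusted p = 0.81). Egr1 was low in both groups, with 0.844 and 0.305 CPM in H1 TKO cells (37 and 20 counts). H1 controls had 0.230 and 0.698 CPM (14 and 36 counts). A difference was not detectable at these counts and this spread between libraries (log2 fold change 0.30 ± 0.86, adjusted p = 0.85). Fgfr1 had 104 and 107 CPM in H1 TKO cells and 98.7 and 120 CPM in H1 controls, with overlap (log2 fold change -0.05 ± 0.20, adjusted p = 0.89).

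**Figure D3:**
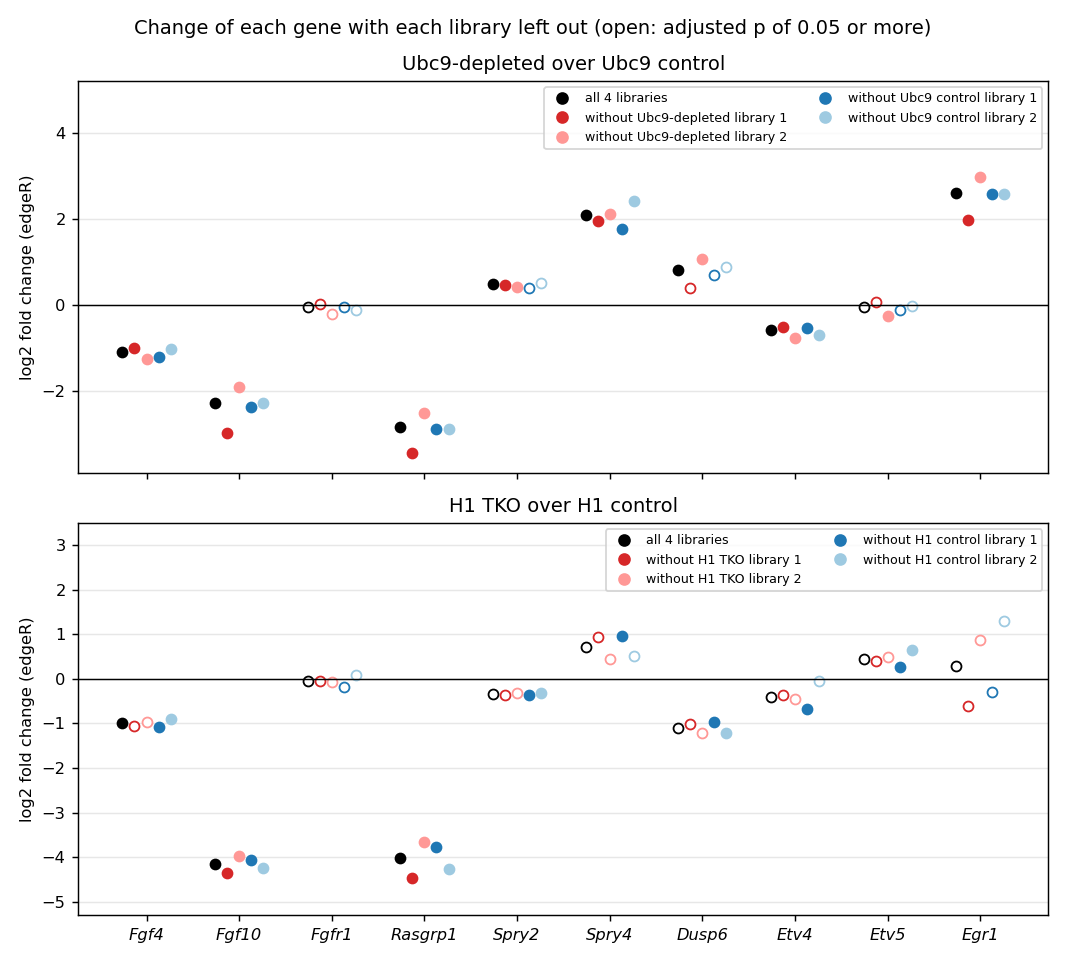
Log2 fold change of each gene with all 4 libraries (black) and with each library left out (colours), for Ubc9-depleted over Ubc9 control above and H1 TKO over H1 control below. Open symbols mark an adjusted p of 0.05 or more; Fgf10 and Rasgrp1 stayed filled and negative throughout, while Egr1 in the H1 comparison ran between -0.60 and 1.29.

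Whether the effects of Ubc9 depletion and H1 loss differed was tested in 1 fit of all 8 libraries, as the Ubc9 effect minus the H1 effect. The cell lines and library kits differed between the 2 tables, and their part cannot be told apart from the rest. Dusp6 differed by 1.89 ± 0.44 on the log2 scale (adjusted p = 0.016), Fgf10 by 1.87 ± 0.56 (adjusted p = 0.047) and Spry2 by 0.79 ± 0.21 (adjusted p = 0.029). Thus 3 of the 10 genes were called higher and 0 lower in this test. DESeq2 also gave 3 and 0, against 1435 higher and 1669 lower over all genes. At an unadjusted p under 0.05 edgeR gave 6 and 0 of the 10, and the share of all genes there was not computed. Of the 16974 genes tested, edgeR called 8.08% higher and 6.43% lower at the adjusted threshold, 14.5% in all. Of the calls over all genes 55.7% were higher, or 75.1% with scaling by library totals. Without Ubc9-depleted library 1 none of the 3 passed, with adjusted p = 0.065 for Dusp6, 0.14 for Fgf10 and 0.085 for Spry2. Fgf10 was also lost without either Ubc9 control library or H1 TKO library 2 (adjusted p from 0.088 to 0.10), and Spry2 without any Ubc9 or H1 TKO library (adjusted p from 0.085 to 0.31). Rasgrp1 (1.18 ± 0.48, adjusted p = 0.13), Spry4 (1.34 ± 0.52, adjusted p = 0.115) and Egr1 (2.28 ± 0.98, adjusted p = 0.15) were not called. Rasgrp1 was called without the filter on low counts (adjusted p = 0.016), without H1 TKO library 1 (adjusted p = 0.038) and without H1 control library 1 or 2 (adjusted p = 0.025 and 1.6e-05), Egr1 without H1 control library 1 (adjusted p = 0.0035), and Spry4, Etv5 and Etv4 without H1 control library 2 (adjusted p = 0.012, 0.0070 and 0.030). For Fgf4 the difference was -0.11 ± 0.23 (adjusted p = 0.81), or 0.18 with scaling by library totals. Etv5, Etv4 and Fgfr1 had differences of -0.52 ± 0.25, -0.21 ± 0.29 and -0.02 ± 0.23 (adjusted p = 0.19, 0.68 and 0.98), of which those of Etv4 and Fgfr1 also turned positive under that scaling.

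The rest of the pathway was described from 8 lists of genes by role, with 84 genes besides the 10. After Ubc9 depletion 14 of the 72 tested rose and 7 fell, or 19.4% and 9.72%, near or below the 21.1% and 15.0% over all genes, with a median log2 fold change of 0.05. In H1 TKO cells 8 of 66 rose and 6 fell, or 12.1% and 9.09%, against 8.59% and 8.43% over all genes, with a median of -0.08. Some genes near 0 in the controls were tested because of their counts in Ubc9-depleted or H1 TKO cells alone, Rasgrf2 in the H1 comparison among them. Many calls rested on few libraries. Of the 18 genes named below for Ubc9 depletion, 12 were called without Ubc9-depleted library 1 (not Fgfr2, Sos1, Rasa4, Spred2, Myc or Etv1), 4 without Ubc9 control library 1 (Fgf1, Fgf7, Fgfrl1 and Ksr1), 6 without Ubc9 control library 2 (those and Mras and Etv1), 12 by DESeq2 (not Fgfr2, Rasa4, Ksr2, Spred2, Myc or Etv1), 12 with scaling by library totals (not Frs2, Rasgrp2, Sos1, Ksr2, Ksr1 or Spred2) and 3 in 1 fit of all 8 libraries (Fgf1, Fgf7 and Rasgrp2). Fgf1 and Fgf7 were the 2 called in each of the 10 alternatives. Of the 12 named for H1 TKO cells, Fgf17, Rasgrf2, Rasgrp2, Rasa4, Eras and Ksr2 were called in each, and 7 were called without H1 TKO library 1 (not Fgf1, Rasa2, Spry1, Spred1 or Etv1) or 2 (not Fgf1, Fgf11, Spry1, Spred1 or Etv1).

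Of 22 genes of the FGF family, the intracellular Fgf11 included, 15 passed the filter after Ubc9 depletion. Of these, Fgf4 and Fgf10 were called lower and 6 higher. Among the 6 were Fgf8, with means of 0.796 CPM in Ubc9-depleted cells and 0.0958 CPM in Ubc9 controls, and Fgf20, with 0.271 CPM in Ubc9-depleted cells and 0.0212 CPM in Ubc9 controls. Ligands near 0 in the Ubc9 controls passed only through the Ubc9-depleted libraries, so this count shows no direction of the family. Fgf1, a ligand that binds all FGF receptors, rose to 11.7 ± 1.10 CPM in Ubc9-depleted cells, against 1.06 ± 0.019 CPM in Ubc9 controls (log2 fold change 3.47 ± 0.18, adjusted p = 1.6e-15). Fgf7, known as keratinocyte growth factor, had 5.67 ± 0.30 CPM in Ubc9-depleted cells and 0.717 ± 0.077 CPM in Ubc9 controls, and Fgf18 rose by 2.04 ± 0.51 on the log2 scale. Of the fibroblast markers 5 of 8 rose and 0 fell, against 21.1% and 15.0% of all genes tested. Their sum was 34.8 to 36.6 CPM in Ubc9-depleted and 17.8 to 18.0 CPM in Ubc9 control libraries. None of the 8 was at 0 in any of these libraries. Primitive endoderm markers had 4 of 6 tested higher and 0 lower, beside the same 21.1% and 15.0% of all genes. Their sums were 20.5 to 26.4 CPM in Ubc9-depleted and 13.1 to 13.4 CPM in Ubc9 control libraries. Of the 4, Foxa2 had 3 and 7 counts in the Ubc9 controls, too few for a fall to be called. Foxa2 and Sox17 had 72 and 251 counts in Ubc9-depleted library 1, against 12 and 98 in Ubc9-depleted library 2. Of 5 primed epiblast markers 1 rose and 3 fell, with sums of 115 to 121 CPM in Ubc9-depleted and 141 to 149 CPM in Ubc9 control libraries. The part of these markers in the results on these genes, Fgf10 and Egr1 included, was not tested.

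In H1 TKO cells 4 of 12 tested genes of the FGF family fell, Fgf4 and Fgf10 among them, and 2 rose. Of these 2, Fgf7 had means of 0.800 CPM in H1 TKO cells and 0.114 CPM in H1 controls. It passed the filter only through the H1 TKO libraries, so a call could only be higher. Of all genes tested 8.43% were called lower and 8.59% higher. Fgf17, a relative of Fgf8, had 1.58 ± 0.55 CPM in H1 TKO cells and 14.3 ± 2.66 CPM in H1 controls (log2 fold change -3.16 ± 0.34, adjusted p = 0.0016). Fgf11, an intracellular member of the family, fell by 1.67 ± 0.30 on the log2 scale, and Fgf1 rose by 2.19 ± 0.48. Fibroblast markers summed to 7.78 to 8.10 CPM in H1 TKO and 12.8 to 21.7 CPM in H1 control libraries, with Postn at 0 in all 4 and Pdgfrb lower as the 1 called of 3 tested. Primitive endoderm markers summed to 14.9 to 16.7 CPM in H1 TKO and 8.11 to 8.98 CPM in H1 control libraries, with 1 of 6 higher. That was Dab2, at 10.5 CPM in H1 TKO cells and 1.66 CPM in H1 controls on average, while the median log2 fold change of the 6 was -0.25. In the same libraries, of 5 primed epiblast markers 1 (Dnmt3b) was higher and 1 (T) lower, with sums of 81.3 to 86.6 CPM in H1 TKO and 50.6 to 56.6 CPM in H1 control libraries. Dnmt3b made up most of these sums, at 80.1 CPM in H1 TKO cells and 43.9 CPM in H1 controls on average, while the median log2 fold change of the 5 was -1.33. The part of these markers in the results on the 10 genes was not tested.

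Of 7 Ras exchange factors tested after Ubc9 depletion, Rasgrp1 included, 1 was called higher and 3 lower, against 21.1% and 15.0% of all genes. In H1 TKO cells 1 of 6 was called higher and 2 lower, against 8.59% and 8.43% of all genes. Rasgrp2, a relative of Rasgrp1 known as a Rap activator of platelets, had 4.55 ± 0.83 CPM in H1 TKO cells and 43.6 ± 14.3 CPM in H1 controls (log2 fold change -3.25 ± 0.31, adjusted p = 0.0011). After Ubc9 depletion Rasgrp2 had 2.10 ± 0.094 CPM, against 4.39 ± 0.34 CPM in Ubc9 controls (log2 fold change -1.06 ± 0.27, adjusted p = 0.0033). Rasgrf2, a calcium-responsive exchange factor of neurons, had 214 counts over both H1 TKO libraries and 1 over both H1 controls. The ratio was 220 (95% counting interval 39.1 to 8730, counting error only). It passed the filter there only through the H1 TKO libraries, so a call could only be higher. In Ubc9-depleted cells Rasgrf2 had 2.66 ± 0.92 CPM, against 0.847 ± 0.18 CPM in Ubc9 controls (log2 fold change 1.65 ± 0.46, adjusted p = 0.0057). Sos1, the ubiquitous exchange factor recruited by receptors, fell by 0.35 ± 0.12 on the log2 scale after Ubc9 depletion (adjusted p = 0.032, or 0.14 with scaling by library totals).

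Further down, 13 of 16 Ras proteins and kinases were not called in each comparison. Eras, a constitutively active Ras of embryonic stem cells, had 21.3 ± 3.13 CPM in H1 TKO cells and 2.98 ± 1.76 CPM in H1 controls (log2 fold change 2.84 ± 0.42, adjusted p = 0.0055). Ksr2, a scaffold of the kinases, was called higher in H1 TKO cells (2.08 ± 0.39, adjusted p = 0.012) and after Ubc9 depletion (0.995 ± 0.37, adjusted p = 0.036). The scaffold Ksr1 and the Ras protein Mras fell by 0.44 ± 0.11 and 0.52 ± 0.11 on the log2 scale after Ubc9 depletion, and Ksr1 was not called with scaling by library totals (adjusted p = 0.11). Rasa4 and Rasa2, GTPase-activating proteins that switch Ras off, fell by 2.17 ± 0.31 and 1.49 ± 0.36 on the log2 scale in H1 TKO cells, and Rasa2 by 0.92 without H1 control library 1. After Ubc9 depletion Rasa4 was called higher, at 0.46 ± 0.16, but at 0.30 without Ubc9-depleted library 1, 0.65 without Ubc9 control library 1, 0.24 without Ubc9 control library 2 and 0.395 in DESeq2 it was not (adjusted p = 0.155, 0.092, 0.68 and 0.29).

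**Figure D4:**
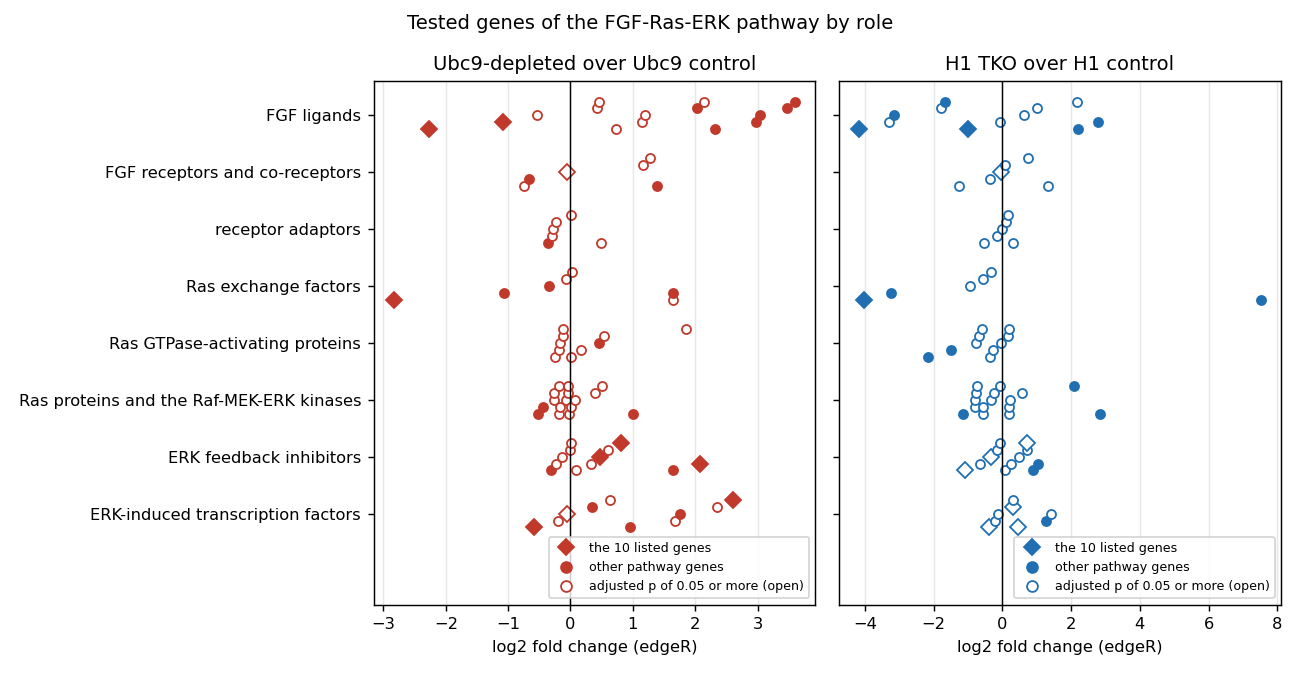
Log2 fold change of each tested gene of the 8 role lists (diamonds: the 10 listed genes, circles: the others), for Ubc9-depleted over Ubc9 control on the left and H1 TKO over H1 control on the right, filled where the adjusted p was under 0.05. Among exchange factors Rasgrp1 and Rasgrp2 lie farthest to the left in both, at -2.83 and -1.06 on the left panel and -4.03 and -3.25 on the right.

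The counts of feedback and target genes of ERK include the listed ones. After Ubc9 depletion 4 of 12 tested feedback inhibitors rose and 1 fell, and 4 of 10 ERK-induced transcription factors rose and 1 fell. Of all genes tested 21.1% were called higher and 15.0% lower. The ERK phosphatase Dusp4 rose by 1.65 ± 0.51, the AP-1 subunit Fos by 1.76 ± 0.42, the growth regulator Myc by 0.96 ± 0.29 and the ETS factor Etv1 by 0.35 ± 0.11, while Spred2, an inhibitor of Raf activation, fell by 0.31 ± 0.11 on the log2 scale. Without Ubc9-depleted library 1, Myc had a log2 fold change of 0.33 (adjusted p = 0.26). In H1 TKO cells 8.59% of all genes tested were called higher and 8.43% lower. There 2 of 12 inhibitors rose and 0 fell, and 1 of 8 transcription factors rose and 0 fell. Those were Spry1, with 19.2 ± 0.95 CPM in H1 TKO cells and 9.26 ± 2.67 CPM in H1 controls (adjusted p = 0.038), Spred1 (log2 fold change 0.88 ± 0.24, adjusted p = 0.044) and Etv1 (1.26 ± 0.35, adjusted p = 0.047). Among receptors and adaptors, Fgfrl1, a decoy receptor without a kinase, fell by 0.67 ± 0.11, the adaptor Frs2 fell by 0.37 ± 0.12 and Fgfr2 rose by 1.39 ± 0.42 on the log2 scale after Ubc9 depletion. Without Ubc9-depleted library 1, Fgfr2 had a log2 fold change of 0.53 (adjusted p = 0.18). Of 6 receptors and 6 adaptors tested none was called in H1 TKO cells by edgeR.

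To place the 10 genes among all others, each was matched with the genes of most similar pattern over the 8 libraries, by the root mean square difference in log2 CPM after centring each library on its own control mean (11824 other genes compared). Fgf4 was closest to Ccne1, cyclin E1, with a difference of 0.080, followed by Tes and Lrrc8d. The nearest to Fgf10 were Ffar2 (0.286), Htr5a and Ap3b2, and those nearest to Rasgrp1 were Ap3b2 (0.441), Lefty2 (0.474) and Nkx1-2. Between Fgf10 and Rasgrp1 themselves the difference was 0.473, so that each was the nearest of the other listed genes. Egr1 was closest to Pou3f1 (0.134) and Dusp6 to a gene known only by a clone name (0.091). This is a description of 8 libraries and carries no test.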

How the data were processed

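The deposited counts per gene symbol of 8 libraries, in a table for each comparison, were used as the authors made them. Per the submitters' processing notes, cutadapt, STAR, HTSeq and DESeq2 were used on mm10, with versions, annotation and strand setting not given in the sources used here. RNA was selected on polyA beads and the kits were ScriptSeq v2 (Ubc9 cells) and Lexogen SENSE V2 (H1 cells), per the labels' protocols, so each table was fitted alone. CPM and TPM were computed here from the deposited counts.

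The test was edgeR 4.0.16 in R 4.3.3 (filterByExpr with minimum count 10 and total 15, TMM, quasi-likelihood F test, Benjamini-Hochberg threshold 0.05). SE is the log2 fold change divided by the square root of F. Depths were 44441713 to 102780141 counts, and 3 counts correspond to 0.0299 to 0.0685 CPM. TPM used exonic lengths of GENCODE M21 (GRCm38), matched for 23338 symbols by name and 668 by an older name. The alternatives were RLE factors, library totals, no filter, DESeq2 1.42.0, a replicate block, all 8 libraries in 1 fit and leaving out each library, where a lone library is assumed to vary like the other group.

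The genes and lists were chosen with earlier results of these data known, and the lists were written from general knowledge. Named besides the 10 genes were the targeted genes and, per role list and comparison, up to 3 called genes with the largest change and a mean of at least 1 CPM, and 3 genes of most similar pattern (log2 of CPM plus 0.5), and 2 of the genes that this rule names are not reported here. The scripts were tested on simulated data. Recovery of 2-fold changes there was 68% in the Ubc9 comparison, 25% in the H1 comparison and 17% in the difference. For 4-fold changes it was 79%, 91% and 79%. Same-numbered libraries are not labelled as pairs.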

Additional observations from a re-analysis of the deposited data

Results flagged for a closer look

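For 3 of the 10 genes the effect of Ubc9 depletion differed from that of H1 loss in the test of the difference itself (Ubc9 effect minus H1 effect, edgeR). Of all genes tested 14.5% were called in this test. The cell lines and library kits differed between the 2 tables, and their part cannot be told apart from the rest. Neither Dusp6 nor Spry2 was called in the H1 comparison alone (edgeR, adjusted p = 0.060 and 0.29). Dusp6 differed by 1.89 ± 0.44 on the log2 scale (adjusted p = 0.016), being higher in both Ubc9-depleted libraries and lower in both H1 TKO libraries than in their controls. Spry2 differed by 0.79 ± 0.21 (adjusted p = 0.029), with the same pattern of directions. Fgf10 differed by 1.87 ± 0.56 (adjusted p = 0.047), being lower in both, and further in H1 TKO cells. Each of the 3 lost its call without Ubc9-depleted library 1. Fgf10 and Spry2 lost theirs also without some of the other libraries.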

How the results depend on the processing

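The falls of Fgf10 and Rasgrp1 in each comparison, of Fgf4 after Ubc9 depletion, and the rises of Spry4 and Egr1 after Ubc9 depletion kept their direction and their call under every alternative run. With all 8 libraries in 1 fit the Ubc9 comparison called 1100 genes higher and 483 lower, and 2 of the 10 genes higher and 3 lower, and the H1 comparison called 2205 genes higher and 2158 lower. Scaling by library totals left 1084 genes lower after Ubc9 depletion and 635 lower in the difference between the effects, moved the median of all genes to 0.25 from 0.06 in the Ubc9 comparison, and turned Etv5 and Fgfr1 to 0.14 each after Ubc9 depletion and Fgf4, Etv4 and Fgfr1 to 0.18, 0.0689 and 0.26 in the difference. Without the filter 1895 genes were lower in H1 TKO cells, and DESeq2 called 1669 lower in the difference. The cause was not tested.

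With 1 library left out, genes called higher and lower ranged from 1230 to 8428 and 795 to 4610 after Ubc9 depletion, 617 to 3994 and 488 to 4038 in H1 TKO cells, and 720 to 3222 and 565 to 2923 in the difference. Counts moved by over 1.5 times without Ubc9-depleted library 2 or either Ubc9 control after Ubc9 depletion, without any of the 4 libraries in H1 TKO cells, and without Ubc9-depleted library 1, H1 TKO library 2 or either H1 control in the difference. Of the 10 genes, 2 to 4 were higher after Ubc9 depletion, 0 to 2 higher and 2 to 6 lower in H1 TKO cells, and 0 to 5 higher and 0 to 2 lower in the difference. Values that changed sign ran from -0.25 to 0.0618 for Etv5 and -0.21 to 0.0241 for Fgfr1 after Ubc9 depletion, from -0.60 to 1.29 for Egr1 and -0.18 to 0.0932 for Fgfr1 in H1 TKO cells, and from -0.27 to 0.0062 for Fgf4, -0.56 to 0.0287 for Etv4 and -0.17 to 0.0745 for Fgfr1 in the difference.

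The deviations of same-numbered libraries correlated at -0.0032 in the Ubc9 table and 0.156 in the H1 table. With a replicate block the counts were 3160 higher and 2643 lower after Ubc9 depletion, 1732 and 1729 in H1 TKO cells, and 1666 and 1318 in the difference; Dusp6 was then called in H1 TKO cells (adjusted p = 0.040) and Rasgrp1 in the difference (adjusted p = 0.036). Egr1 in the H1 table had 14 to 37 counts, and its replicate libraries differed. Library 1 had 2.77 times the CPM of library 2 in H1 TKO cells and 0.329 times in H1 controls.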
